A study of Mus musculus with 18 samples.

Results

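The glucocorticoid receptor, the enzyme that reactivates its ligand inside cells and 8 genes known to respond to the receptor were followed through liver, epididymal white adipose tissue (eWAT) and quadriceps muscle of mice fed a high-salt diet (HSD) or a control diet (CON). The genes were taken by name from the 21899 genes of the expression table: *Nr3c1*, *Hsd11b1*, *Fkbp5*, *Tsc22d3*, *Sgk1*, *Pdk4*, *Klf9*, *Zbtb16*, *Mt1* and *Mt2*, and all 10 were found. All mice were wild-type C57BL/6 males, 18 weeks old at sampling. The HSD mice ate salt-enriched chow and drank saline for 12 weeks, and the CON mice ate chow and drank tap water. RNA of whole tissue pieces was sequenced in 18 libraries, 3 CON and 3 HSD for each tissue. Expression is given as FPKM, the number of sequenced fragments on a gene divided by its exon length and by the size of the library, which may be compared between genes because it is per length. Libraries carry the mouse code of the labels and a letter for the tissue, L for liver, W for eWAT and M for muscle, so that CON16L is the liver of the CON mouse numbered 16. The replicates of a group carried different mouse codes, and the p-values measure the spread between these mice. The same codes recur across tissues, 8 codes in all with 6 of them on more than 1 library, so the tissues are not independent sets of mice.

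Glucocorticoids, in the mouse mainly corticosterone, bind the receptor encoded by *Nr3c1* in the cytoplasm, where chaperones hold it. The bound receptor enters the nucleus and acts at glucocorticoid response elements, an inverted repeat of the letters AGAACA, to raise or lower transcription. Liver, adipose tissue and skeletal muscle are classical target tissues, in which the hormone is known to raise glucose output, to mobilise fat and to break down muscle protein.

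The promoter sequences are shown where they carry the sequence motif for which a member is known. *Sgk1*, a kinase gene induced by glucocorticoids and mineralocorticoids, held the full element, AGAACA followed after any 3 bases by its reverse complement TGTTCT, in 1 of its 6 annotated promoter windows, with the first base 189 bases before the start. *Mt1* and *Mt2*, neighbouring metallothionein genes with 5513 bases between them on chromosome 8, are known for metal response elements, searched here as TGCACNC or TGCGCNC on both strands. The 250 bases before the start are given 5′ to 3′ on the plus strand from RefSeq, build GRCm38.p6, in the order *Sgk1* (chr10:21993640-21993889), *Mt1* (chr8:94178839-94179088) and *Mt2* (chr8:94172368-94172617). Capitals mark the glucocorticoid element in *Sgk1* and the metal elements in *Mt1* and *Mt2*, of which the last of *Mt2* lies on the reverse strand.
Sgk1: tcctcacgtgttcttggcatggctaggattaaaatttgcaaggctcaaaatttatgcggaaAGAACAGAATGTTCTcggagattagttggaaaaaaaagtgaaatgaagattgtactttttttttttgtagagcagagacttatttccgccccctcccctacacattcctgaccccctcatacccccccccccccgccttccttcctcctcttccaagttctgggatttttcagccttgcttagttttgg
Mt1: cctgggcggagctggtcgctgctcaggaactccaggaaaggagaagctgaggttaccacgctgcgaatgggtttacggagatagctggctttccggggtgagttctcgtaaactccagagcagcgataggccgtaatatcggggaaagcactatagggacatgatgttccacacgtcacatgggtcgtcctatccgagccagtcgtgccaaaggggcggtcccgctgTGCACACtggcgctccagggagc
Mt2: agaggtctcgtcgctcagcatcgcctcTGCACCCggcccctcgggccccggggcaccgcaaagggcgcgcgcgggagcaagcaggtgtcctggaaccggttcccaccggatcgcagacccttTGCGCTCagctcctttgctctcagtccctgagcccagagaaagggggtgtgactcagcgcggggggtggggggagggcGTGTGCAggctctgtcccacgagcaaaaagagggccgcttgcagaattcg

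Promoter windows of 300 bases, 250 before and 50 after the start, were listed for 8 of the 10 members, 15 windows in all. Among 32851 windows of all genes the full glucocorticoid element was found in 3 (0.01%), its AGAACA arm alone in 18.97% and a metal element in 25.7%. In the *Sgk1* window the arms at −189 and −180 are those of the full element, and a further arm lies at −242. The *Mt1* window held 3 metal elements, 1 of them before the start, and the *Mt2* window held 4, 3 of them before the start. A match describes the letters in the window and is no evidence of binding.

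The libraries held 7620942 to 16607123 fragments on listed genes, and genes encoded in the mitochondrion took 15.4 to 60.9% of them in liver, 3.5 to 5.1% in eWAT and 11.3 to 16.5% in muscle. Summed marker levels set the labelled tissues apart. The 10 skeletal muscle markers summed to 67061 to 84859 FPKM in muscle and at most 4702 elsewhere, the 10 adipocyte markers to 7515 to 24339 in eWAT and at most 359 elsewhere, and the 11 hepatocyte markers to 17250 to 92548 in liver and at most 2578 elsewhere. Some libraries stood apart. HS3W held 17457 summed FPKM of 10 epididymal epithelium markers against 2.92 to 45.3 in the other eWAT libraries, and its adipocyte marker sum was 41.5% of the CON mean. CON16L held 4702 summed FPKM of skeletal muscle markers, 6.53% of the muscle CON mean, against 2.97 to 7.40 in the other liver libraries. CON14L had the highest mitochondrial share and 30.7% of the mean hepatocyte marker sum of CON liver. Summed macrophage markers were lower in every HSD library than in every CON library of the same tissue (61.6 to 71.0 against 25.5 to 40.7 FPKM in liver, 553 to 823 against 238 to 518 in eWAT, 54.2 to 87.1 against 39.5 to 44.9 in muscle), and *C1qa* in muscle (log2 fold change −1.07, limma adjusted p = 0.0213) was the 1 marker gene of any list that was called. Blood cell markers were highest in the libraries of 1 mouse, at 5629 in CON16L, 5673 in CON16W and 966 FPKM in CON16M against at most 843, 746 and 224 in the other libraries of those tissues. In whole tissue, fewer cells of a type and less RNA per cell cannot be told apart.

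On the control diet the receptor was highest in eWAT, at 36.5 ± 1.03 FPKM (mean ± SD, n = 3, as for all group values below), followed by muscle at 15.8 ± 1.03 and liver at 5.62 ± 1.49. *Hsd11b1*, which converts inactive 11-ketosteroids to active hormone, ran in another order, from liver at 122 ± 64.9 over eWAT at 47.7 ± 5.27 to muscle at 1.97 ± 0.302 FPKM. *Sgk1* and *Pdk4*, whose products are kinases acting on ion transport and on the pyruvate dehydrogenase complex, were highest in muscle, at 65.3 ± 3.68 and 50.7 ± 21.2 FPKM, and lowest in liver, at 4.51 ± 2.87 and 4.66 ± 6.60. The liver mean of *Pdk4* rests on CON16L, at 12.3 FPKM against 0.411 and 1.31 in the other CON livers.

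*Fkbp5*, a co-chaperone that lowers the affinity of the receptor for its hormone, and *Zbtb16*, a zinc-finger transcription factor, followed the order of the receptor. *Fkbp5* held 8.71 ± 1.84 FPKM in eWAT, 3.98 ± 0.363 in muscle and 1.51 ± 0.173 in liver. *Zbtb16* held 18.2 ± 1.78, 7.44 ± 0.930 and 0.742 ± 0.288 FPKM in the same order. *Mt1* was at 76.0 ± 10.9 FPKM in eWAT and far lower elsewhere, at 8.01 ± 0.534 in muscle and 6.63 ± 3.67 in liver. *Tsc22d3*, which encodes the anti-inflammatory protein GILZ, and *Klf9*, a Krüppel-like transcription factor, were the most even, at 46.4 ± 5.36, 38.7 ± 1.12 and 18.7 ± 7.85 FPKM and at 48.6 ± 5.71, 40.5 ± 3.85 and 28.1 ± 5.07 FPKM in muscle, eWAT and liver.

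A level was called different between tissues when its Benjamini-Hochberg adjusted p was under 0.05 and the difference at least 1 on the log2(FPKM + 0.5) scale, in 1 limma model of the 18 libraries. The model treats libraries of 1 mouse as independent, and with mouse as a random block (within-mouse correlation 0.022) the counts of members called were the same. By that rule 8 of 9 members differed between eWAT and liver, where 67.4% of 13067 genes did, 7 of 9 between muscle and liver, where 48.4% did, and 7 of 9 between muscle and eWAT, where 53.3% did. The neighbours in an order that were not called different were muscle and liver for *Mt1* (difference of 0.40, adjusted p = 0.256), muscle and eWAT for *Tsc22d3* (0.25, adjusted p = 0.487), and all pairs of tissues for *Klf9*, which reached 0.79 between muscle and liver (adjusted p = 0.0122), short of the fold. Without CON14L the calls of *Tsc22d3* (0.77) and *Pdk4* (1.31, adjusted p = 0.129) between eWAT and liver were lost, without CON16L, CON72L or CON72W that of *Hsd11b1* (−0.81, −1.03 and −1.11, adjusted p = 0.103, 0.0684 and 0.0548), and that of *Pdk4* also without CON72L or CON16W (adjusted p = 0.0758 and 0.0752). Between muscle and eWAT the call of *Pdk4* was lost without CON71W, CON72W, CON16M or CON71M (adjusted p from 0.066 to 0.0999) and that of *Fkbp5* without CON16W (−0.87) or CON72M (−0.97). That call of *Fkbp5* also fell short of the fold with library weights (−0.99), without mitochondrially encoded genes (−0.96) and with a pseudocount of 1 (−0.95), as did its call between muscle and liver with a pseudocount of 1 (0.99) and that of *Tsc22d3* between eWAT and liver without mitochondrially encoded genes (0.95). When libraries were scaled by the median ratio of their genes instead, the counts of members called were 5 for eWAT against liver, 4 for muscle against liver and 6 for muscle against eWAT. The shares of all genes called under that scaling are not given here, so the lower counts cannot be set against those of all genes. Calls of *Fkbp5* were lost in all 3 pairs, of *Nr3c1* in both pairs with muscle, of *Zbtb16* between muscle and eWAT (−0.29), of *Sgk1* and *Pdk4* between eWAT and liver and of *Tsc22d3* between muscle and liver, and the difference of *Tsc22d3* between eWAT and liver turned from 1.12 to −0.49. Calls were gained for *Klf9* between eWAT and liver (−1.08) and between muscle and eWAT (1.23), and for *Tsc22d3* between muscle and eWAT (1.22).

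*Mt2* was listed at 0 FPKM in all 18 libraries, so no change was computed. Its exons span 588 bases, and 187 of 435 protein-coding genes of 500 to 700 exon bases (43.0%) were listed at 0 throughout, against 13.9% of all genes with a known exon length.

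**Figure D1:**
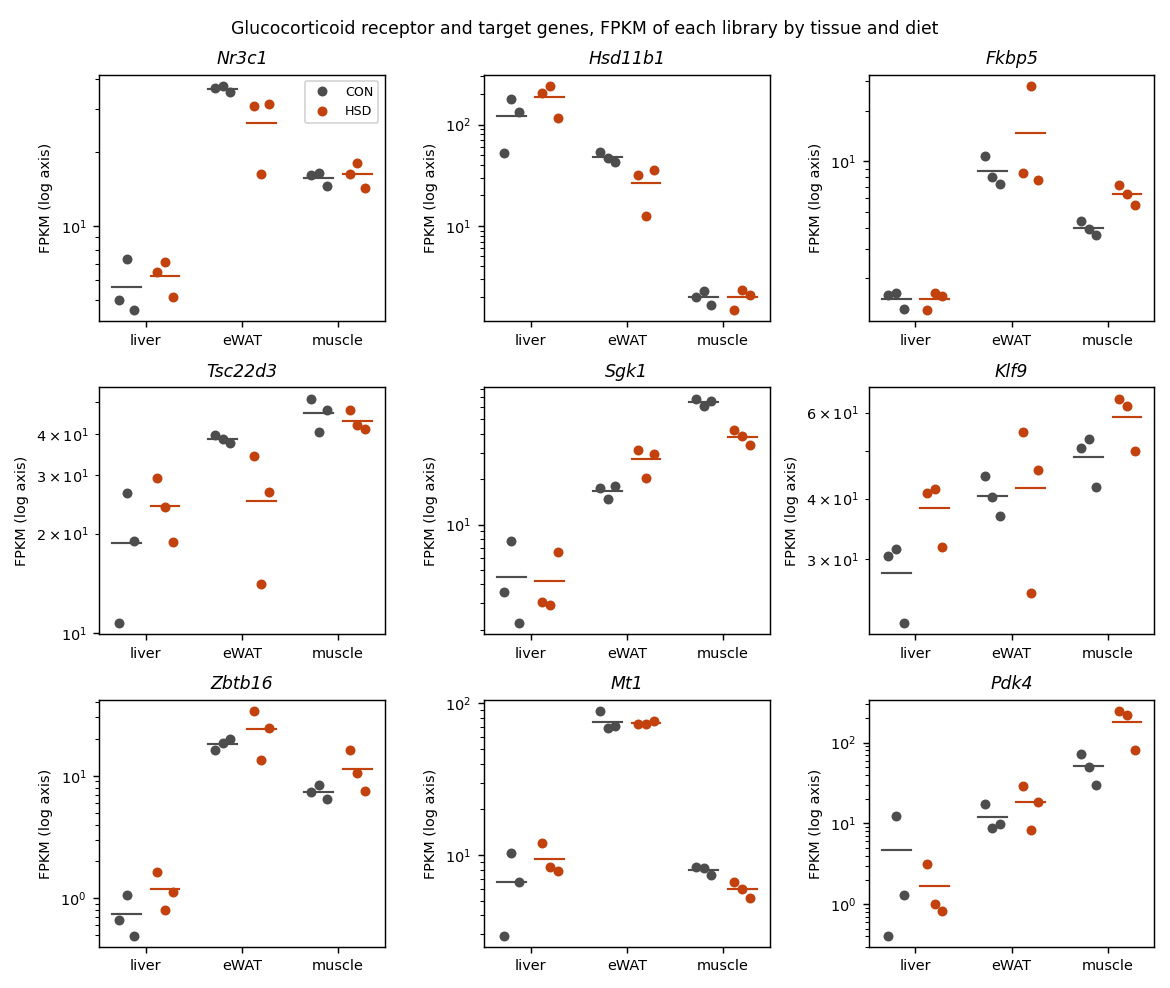
FPKM of the 9 members listed above 0 on log axes, with the 3 CON (grey) and 3 HSD (orange) libraries of liver, eWAT and muscle as points and the group means as bars. In muscle the 3 HSD points of *Sgk1* lie below and those of *Fkbp5* and *Pdk4* above all CON points, and in eWAT the point of HS3W lies apart for *Nr3c1*, *Hsd11b1*, *Fkbp5* and *Tsc22d3*.

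The diet groups of a tissue were set against each other with limma on the same scale, and a gene was called changed at an adjusted p under 0.05 over all genes tested together with a log2 fold change of at least 1 in size. No member was called changed in any tissue. The background was 0% of 10317 genes in liver, 0% of 13740 in eWAT and 0.323% of 10834 in muscle (35 genes, 11 up and 24 down). The study itself, with DESeq2 at the same cutoffs, reports changed genes in each tissue, most of them in eWAT and liver. At an unadjusted p under 0.05 the members numbered 0 of 9 in liver, 1 of 9 in eWAT and 5 of 9 in muscle, and all genes 592, 2298 and 1761. Limma voom on recovered fragments called 0, 0 and 1 members in these tissues. The 9 members had median log2 fold changes of 0.43, −0.01 and 0.04 in liver, eWAT and muscle, beside 0.13, 0.08 and −0.06 for all genes tested.

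The members came closest to the threshold in muscle, where *Sgk1* was lower and *Fkbp5* and *Pdk4* were higher in HSD without overlap of the groups. *Sgk1* was at 68.7, 61.4 and 65.9 FPKM in the CON muscles and at 42.7, 38.5 and 33.7 in the HSD muscles, a ratio of the means of 0.586. The log2 fold change was −0.77 (SE 0.13, limma adjusted p = 0.0334), past the p threshold and short of the fold threshold. All 3 HSD muscles lay below all CON muscles by a wide gap. *Pdk4*, which shuts pyruvate out of oxidation when fat is burnt, was at 72.0, 50.5 and 29.7 FPKM in CON and at 243, 220.5 and 81.9 in HSD, a ratio of the means of 3.58. Here the log2 fold change was 1.77 (SE 0.41, limma adjusted p = 0.0873), past the fold threshold and short of the p threshold. The lowest HSD value, 81.9 in HS5M, stood close to the highest CON value, 72.0 in CON16M.

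*Fkbp5* was at 4.37, 3.94 and 3.64 FPKM in the CON muscles and at 7.24, 6.35 and 5.49 in the HSD muscles (log2 fold change 0.61, SE 0.13, limma adjusted p = 0.0758). *Mt1*, which binds zinc, was at 8.36, 8.27 and 7.39 in CON and at 6.69, 5.93 and 5.24 in HSD (−0.40, SE 0.13, limma adjusted p = 0.168). The groups of both genes were apart, upward for *Fkbp5* and downward for *Mt1*. *Zbtb16* was at 7.40, 8.39 and 6.53 in CON and at 16.1, 10.5 and 7.58 in HSD (0.53, limma adjusted p = 0.300), where HS5M lay within the CON range. Its value was 0.25 without HS2M and 0.77 without HS5M, not called in either.

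The other muscle members overlapped between the diets. *Klf9* was at 42.2 to 52.9 FPKM in CON and 50.1 to 64.1 in HSD (log2 fold change 0.27, 95% interval −0.05 to 0.58). *Nr3c1* itself was at 14.6 to 16.4 in CON and 14.3 to 18.2 in HSD (0.04, −0.24 to 0.32), *Tsc22d3* at 40.7 to 51.2 and 41.4 to 47.2 (−0.08, −0.36 to 0.20) and *Hsd11b1* at 1.66 to 2.26 and 1.48 to 2.36 (−0.01, −0.38 to 0.36). The signs of these last 3 turned with the scaling, *Nr3c1* to −0.02 without mitochondrially encoded genes and *Tsc22d3* and *Hsd11b1* to 0.01 and 0.06 with median-ratio scaling. The 4 members without overlap, of 9, stand beside 22.3% of all genes tested in muscle.

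The call of *Pdk4* turned on the fit. Replicate numbers were tried as a block in every tissue, and same-numbered CON and HSD muscles deviated together in these data. No label pairs CON with HSD mice, so that fit is no separate support for a call. With this block *Pdk4* was called (limma adjusted p = 0.00219), the 1 member among 54 genes. *Fkbp5* and *Sgk1* stayed under the fold threshold there, with adjusted p of 0.0313 and 0.0140. *Pdk4* was also called by limma voom on recovered fragments (log2 fold change 1.78, adjusted p = 0.0477, 1 member among 63 genes) and without HS5M (2.27, adjusted p = 0.0448). With limma's library weights its log2 fold change was 1.35 (adjusted p = 0.105). *Sgk1* exceeded an adjusted p of 0.05 when any library but HS2M was left out, with values from 0.0882 to 0.135, with median-ratio scaling (0.0611), without the filter on low FPKM (0.0757) and in 1 fit of all tissues (adjusted p = 1).

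**Figure D2:**
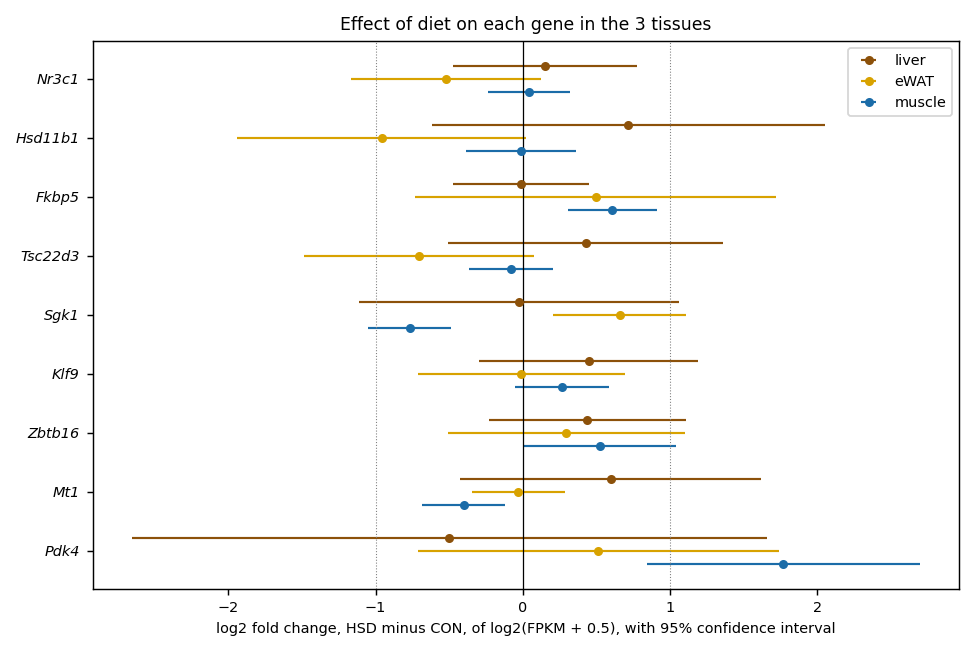
Log2 fold change of HSD against CON on the log2(FPKM + 0.5) scale for each member in liver (brown), eWAT (yellow) and muscle (blue), with 95% confidence intervals from limma and dotted lines at −1 and 1. The muscle intervals of *Fkbp5* (0.31 to 0.91), *Pdk4* (0.84 to 2.70), *Sgk1* (−1.05 to −0.49) and *Mt1* (−0.69 to −0.12) lie away from 0. So do the muscle interval of *Zbtb16*, narrowly (0.01 to 1.04), and the eWAT interval of *Sgk1* (0.21 to 1.11), and the liver intervals are wide.

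In eWAT the receptor, its activating enzyme and *Tsc22d3* were lower and *Sgk1* was higher in every HSD library than in every CON library, and none passed the test. *Nr3c1* was at 36.6, 37.5 and 35.4 FPKM in CON and at 31.1, 16.4 and 31.7 in HSD (log2 fold change −0.52, SE 0.26, limma adjusted p = 0.366). *Hsd11b1* was at 53.4, 46.5 and 43.1 in CON and at 31.6, 12.4 and 35.8 in HSD (−0.96, SE 0.40, limma adjusted p = 0.307). *Tsc22d3* was at 39.8, 38.7 and 37.6 in CON and at 34.5, 14.1 and 26.8 in HSD (−0.70, SE 0.32, limma adjusted p = 0.328). In all 3 genes the lowest value was that of HS3W, the library with epididymal markers. *Sgk1* was at 17.6, 14.8 and 17.9 in CON and at 31.2, 20.5 and 29.6 in HSD (0.66, SE 0.18, limma adjusted p = 0.198), the opposite side to muscle.

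Without HS3W the log2 fold changes came to −0.21 for *Nr3c1* (adjusted p = 0.102), −0.49 for *Hsd11b1* (adjusted p = 0.0575), −0.34 for *Tsc22d3* (adjusted p = 0.122) and 0.84 for *Sgk1* (adjusted p = 0.0227, under the fold threshold), in a fit that called 160 genes and no member. Leaving out any other eWAT library gave adjusted p of 0.216 or more for these 4 genes. The part of the epididymal tissue in the HS3W values was not tested beyond leaving that library out. The macrophage sums given above moved the same way as these 3 lower genes and as *Sgk1* and *Mt1* in muscle, and their part was not tested.

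The remaining eWAT members overlapped between the diets. *Fkbp5* was at 10.8, 8.08 and 7.26 FPKM in CON and at 8.46, 28.1 and 7.74 in HSD (log2 fold change 0.50, limma adjusted p = 0.589), with HS3W far above the rest, and its log2 fold change was −0.08 without that library and 0.38 to 0.82 without any other. *Pdk4* was at 17.5, 8.68 and 9.72 in CON and at 29.4, 8.20 and 18.4 in HSD (0.51, limma adjusted p = 0.578). Again HS3W parted from the other HSD libraries, and the value was 1.00 without it (adjusted p = 0.122) but 0.11 without HS2W (adjusted p = 0.902).

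*Zbtb16* was at 16.3 to 19.9 FPKM in CON and at 33.6, 13.4 and 24.8 in HSD (log2 fold change 0.30). Without HS3W the value was 0.66 (adjusted p = 0.0566), and without HS2W it was 0.01 (adjusted p = 0.987). *Klf9* was at 36.7 to 44.4 in CON and at 54.7, 25.6 and 45.9 in HSD (−0.01, with 0.31 without HS3W and −0.23 without HS2W). *Mt1* was at 68.7 to 88.5 in CON and 72.8 to 76.0 in HSD (−0.03, 95% interval −0.35 to 0.29). In eWAT 4 of 9 members were without overlap, beside 28.6% of all genes tested.

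In liver most members varied as much within a diet as between the diets. *Hsd11b1* was at 52.5, 181 and 134 FPKM in CON and at 204, 242 and 115 in HSD (log2 fold change 0.72, SE 0.57, limma adjusted p = 0.764). *Tsc22d3* was at 10.8, 26.4 and 19.0 in CON and at 29.5, 24.1 and 18.9 in HSD (0.43, SE 0.40, limma adjusted p = 0.772). *Mt1* was at 2.95, 10.3 and 6.67 in CON and at 12.1, 8.35 and 7.79 in HSD (0.60, SE 0.44, limma adjusted p = 0.764). In each of these 3 genes the lowest liver was CON14L, the library with most mitochondrial RNA and the lowest hepatocyte marker sum, and without it the values were 0.20, 0.09 and 0.15. Without CON16L they were 1.08, 0.71 and 0.97, with adjusted p of 0.506 or more.

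*Klf9* was the 1 member of 9 without overlap in liver, beside 12.1% of all genes tested, at 30.5, 31.5 and 22.2 FPKM in CON and 41.1, 41.9 and 31.9 in HSD (log2 fold change 0.45, SE 0.32, limma adjusted p = 0.764). The gap between the highest CON and the lowest HSD liver was small. Leaving out mitochondrially encoded genes moved the median of all liver genes from 0.13 to −0.23, and *Nr3c1* with it to −0.24. In that fit *Klf9* stood at 0.03 (limma adjusted p = 0.994), *Tsc22d3* at 0.02, *Hsd11b1* at 0.30, *Mt1* at 0.22 and *Zbtb16* at 0.17. *Fkbp5*, *Sgk1* and *Pdk4* stood at −0.34, −0.38 and −0.73 there. *Nr3c1* was at 4.54 to 7.32 in CON and 5.10 to 7.10 in HSD (0.15, 95% interval −0.48 to 0.78), *Fkbp5* at 1.32 to 1.64 and 1.30 to 1.63 (−0.01, −0.48 to 0.45) and *Zbtb16* at 0.497 to 1.06 and 0.802 to 1.63 (0.44, −0.23 to 1.11). *Zbtb16* rests on 24 to 90 fragments a liver library.

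*Sgk1* was at 3.56, 7.74 and 2.23 FPKM in the CON livers and at 3.05, 2.93 and 6.59 in the HSD livers (log2 fold change −0.03, SE 0.46, limma adjusted p = 0.987). *Pdk4* was at 0.411, 12.3 and 1.31 in CON and at 3.20, 1.02 and 0.833 in HSD (−0.50, SE 0.92, limma adjusted p = 0.880). The highest value of both was that of CON16L, the liver library with muscle markers. Without CON16L both turned upward, to 0.41 (adjusted p = 0.645) and 0.61 (adjusted p = 0.584), while any other left-out library gave −0.39 to 0.16 and −1.30 to −0.22. The part of muscle RNA was not tested further. The liver read table of the study leaves out CON16L and HS5L, and over the other 4 libraries *Hsd11b1* stood at 1.40 (adjusted p = 0.151), *Mt1* at 1.09 (adjusted p = 0.117) and *Tsc22d3* at 0.88 (adjusted p = 0.179), with no member called.

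**Figure D3:**
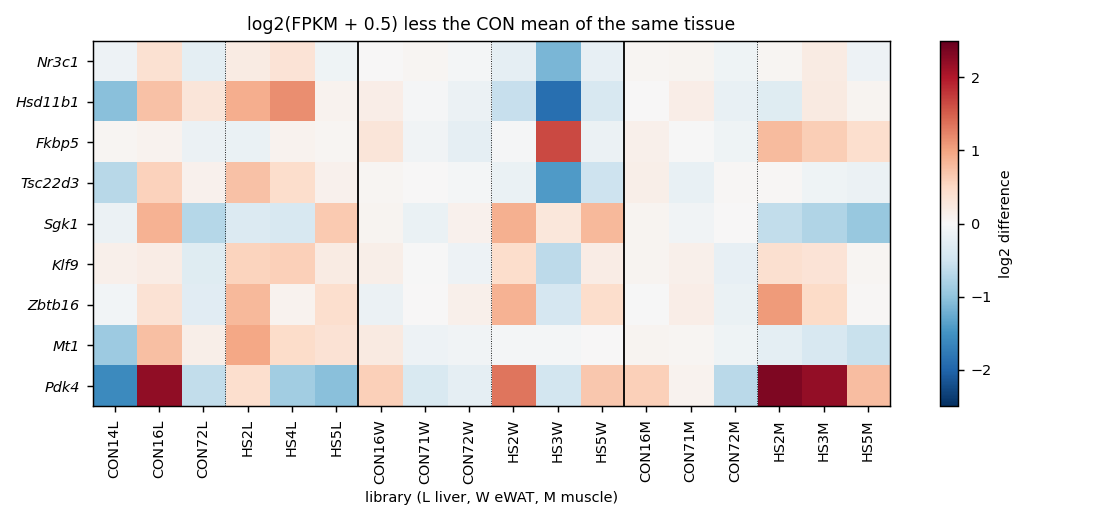
Log2(FPKM + 0.5) of each member (rows) in each library (columns, liver, eWAT and muscle from left to right, CON before HSD) less the CON mean of the same tissue, red above and blue below. HS3W differs from the other eWAT libraries in several members, CON16L stands out for *Pdk4*, and the 3 HSD muscles share higher *Fkbp5* and *Pdk4* and lower *Sgk1*.

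Whether the effect of the diet differed between tissues was tested as an interaction in the model of 18 libraries, which share mice as described above. At an adjusted p under 0.05 no member differed between eWAT and liver (0.788% of 13067 genes did, 103), between muscle and liver (0.0612%, 8 genes) or between muscle and eWAT (0%, 0 genes). At an unadjusted p under 0.05 stood *Hsd11b1* and *Tsc22d3* for eWAT against liver (differences of −1.68 and −1.13, adjusted p = 0.249 and 0.290), *Mt1* for muscle against liver (95% interval of the difference −1.91 to −0.095, adjusted p = 0.574) and *Sgk1* for muscle against eWAT (−1.43, SE 0.48, adjusted p = 0.441). The share of all genes at that unadjusted p is not given here, so these members are listed as a description. With mouse as a random block no member differed either, and the *Sgk1* difference had an adjusted p of 0.411.

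The list of 26 other genes known to be induced by glucocorticoids gave 1 called gene. *Fbxo32*, the muscle ubiquitin ligase atrogin-1, rose in HSD muscle from 58.0, 67.9 and 49.1 FPKM to 183, 152 and 112, a log2 fold change of 1.33 (SE 0.19, limma adjusted p = 0.0213). It was the 1 gene called of 21 tested in muscle, beside the background of 0.323%. The list was chosen with earlier results of these data known, and the study names *Fbxo32* among its key muscle genes. The share of the list is thus a description and no separate support. The list held 7 genes at an unadjusted p under 0.05 there, beside 1761 of all 10834 genes. Its median log2 fold change was 0.26 against −0.06 for all genes. Above all CON libraries lay 5 genes and below them 1, 6 of 21 without overlap beside 22.3% of all genes tested. Singled out after their values were seen, *Trim63*, another muscle ubiquitin ligase MuRF1, went from 79.4 ± 3.37 to 149 ± 37.3 FPKM (0.88, limma adjusted p = 0.0654), and *Cebpb*, a transcription factor, from 4.77 ± 1.70 to 10.1 ± 3.47 (1.00, limma adjusted p = 0.106).

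In eWAT 0 of 24 genes of that list were called and 5 were at an unadjusted p under 0.05, beside 2298 of all 13740 genes. Below all CON libraries lay 6 of the 24 and above them 0, beside 28.6% of all genes tested without overlap. *Tat*, the tyrosine aminotransferase of hepatocytes, was at 3.18 ± 1.46 FPKM in CON and 0.261 ± 0.172 in HSD (log2 fold change −2.22, adjusted p = 0.114), and *Cebpb* was at 12.1 to 20.6 in CON and 3.15 to 8.67 in HSD (−1.62, adjusted p = 0.160). Beside *Tat*, 10 of the 11 hepatocyte markers were lower in every HSD eWAT library than in every CON one, where 28.6% of all genes tested were without overlap. The median of the marker list was −3.22 on the log2 scale, and *Cyp2e1* was the exception, at 0.49. Their summed level was 1126 to 1639 FPKM in CON and 673 to 2578 in HSD, of which *Cyp2e1* made up 1112 and 1787 on average. The part of liver RNA in the *Tat* values was not tested. In liver 0 of 25 were called and 3 were at an unadjusted p under 0.05, beside 592 of all 10317 genes. *Lpin1*, a phosphatidate phosphatase, was at 11.7, 7.86 and 7.68 FPKM in CON and 3.51, 1.78 and 2.34 in HSD (−1.67, SE 0.30, limma adjusted p = 0.677), and *Klf15*, a Krüppel-like factor, was at 39.0 to 53.6 in CON and 75.9 to 97.8 in HSD (0.91, limma adjusted p = 0.764). The study lists *Lpin1* among its key liver genes, as lower in HSD.

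**Figure D4:**
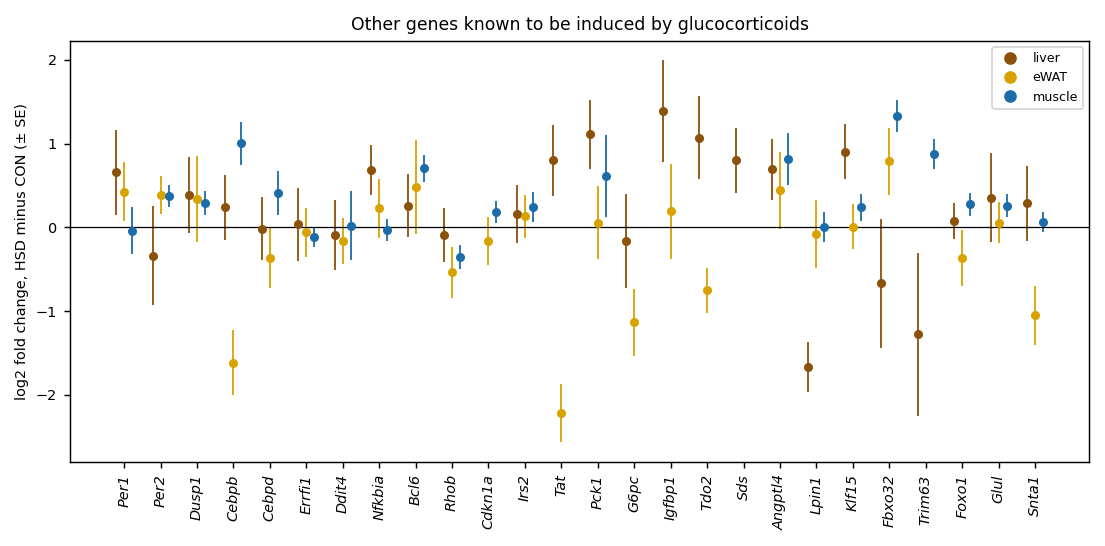
Log2 fold change of HSD against CON (± SE) of the list of 26 other glucocorticoid-induced genes in liver (brown), eWAT (yellow) and muscle (blue), where a gene below the filter on low FPKM in a tissue has no point. *Fbxo32* in muscle (1.33) is the called gene, and the lowest points are those of *Tat* in eWAT (−2.22) and *Lpin1* in liver (−1.67).

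The genes around *Pdk4* in the control of pyruvate dehydrogenase gave no call, with 0 of 7 tested in liver, 0 of 9 in eWAT and 0 of 8 in muscle (0, 3 and 3 at an unadjusted p under 0.05). All genes at that p numbered 592 of 10317, 2298 of 13740 and 1761 of 10834, which stand beside the lists below as well. In muscle *Pdp1*, the phosphatase that opposes the kinases, was at 25.0, 29.8 and 28.1 FPKM in CON and at 13.3, 13.8 and 17.0 in HSD (log2 fold change −0.89, SE 0.13, limma adjusted p = 0.0227), so that like *Sgk1* it passed the p threshold and missed the fold threshold. *Dlat*, a subunit of the complex, stood at −0.28 (adjusted p = 0.290). In eWAT the kinase *Pdk2* stood at 0.74 (adjusted p = 0.152) and the subunit *Pdha1* at −0.63 (adjusted p = 0.159), and in liver *Pdp2* at 0.53 and the subunit *Pdhb* at −0.48 (adjusted p = 0.764 for both).

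Targets of the PPAR receptors, which share *Pdk4* with the glucocorticoid receptor, also gave 0 calls among 8 genes in liver, 8 in eWAT and 7 in muscle, with 1, 0 and 2 at an unadjusted p under 0.05. In muscle *Ucp3*, a mitochondrial carrier, was at 24.4, 13.4 and 14.1 FPKM in CON and 46.3, 50.5 and 21.3 in HSD (1.12, limma adjusted p = 0.136). HS5M was again the lowest HSD muscle, as for *Pdk4*. *Ehhadh* stood at −0.31 in eWAT (adjusted p = 0.378), and in liver *Cpt1a* at 0.91 and *Plin2* at 0.90 (adjusted p = 0.764 for both).

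The chaperones and cofactors of the receptor gave 0 calls among 11 genes in each tissue, with 0, 1 and 1 at an unadjusted p under 0.05 in liver, eWAT and muscle. The 2 with the smallest p were *Ncor1*, a corepressor (0.58, adjusted p = 0.157), and *Stip1* (−0.19, adjusted p = 0.404) in eWAT, *Ptges3*, the co-chaperone p23 (0.50, adjusted p = 0.136), and the coactivator *Ncoa1* (−0.27, adjusted p = 0.424) in muscle, and *Nr3c2*, the mineralocorticoid receptor (−0.46), and *Ptges3* (0.83) in liver, at adjusted p = 0.764. Genes of local steroid handling gave 0 calls among 5, 4 and 2 genes in the same order and 0 at an unadjusted p under 0.05. *Serpina6*, the corticosteroid-binding globulin, was at 68.2 ± 45.5 FPKM in CON livers and 124 ± 17.7 in HSD livers (1.23, SE 0.71, limma adjusted p = 0.764). Its low CON mean rests on CON14L, at 15.8 FPKM against 97.3 and 91.5 in the other CON livers. *H6pd*, which supplies *Hsd11b1* with reducing power, stood at 0.41 in liver and −0.09 in muscle. The steroid reductases *Srd5a2* and *Srd5a1* reached 36.3 and 6.40 FPKM in HS3W against at most 5.13 and 0.965 in the other eWAT libraries, and the pump gene *Abcb1a* stood at −0.05 in muscle.

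Genes of zinc handling beside the metallothioneins gave 0 calls among 6, 6 and 5 genes in liver, eWAT and muscle, and 0 at an unadjusted p under 0.05. The exporter *Slc30a1* stood at 0.57, 0.18 and −0.21 in that order, and the importers *Slc39a10* at −0.15 in liver and 0.27 in eWAT and *Slc39a14* at −0.17 in muscle, with adjusted p of 0.345 or more. Clock output genes, listed because glucocorticoids follow a daily rhythm, gave 0 calls among 10, 12 and 11 genes, with 1, 4 and 3 at an unadjusted p under 0.05. In eWAT 6 of 12 were without overlap, all 6 upward, beside 28.6% of all genes tested, among them *Nr1d2*, a haem-binding repressor, at 20.1 to 23.4 FPKM in CON and 29.3 to 33.8 in HSD (0.54, limma adjusted p = 0.134), and *Ciart* (0.66, adjusted p = 0.210). The 2 smallest p were those of *Cry1* (1.16) and *Nr1d1* (0.82) in liver, at adjusted p = 0.764, and of *Per3* (−0.42) and *Arntl* (0.36) in muscle, at adjusted p of 0.246 and 0.267.

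The medians of these lists can be read beside those of all genes, which on the log2 scale were 0.13, 0.08 and −0.06 for liver, eWAT and muscle. In that order they came to 0.27, 0.13 and −0.01 for receptor machinery, 0.41, 0.25 and −0.07 for local steroid handling, −0.02, 0.18 and −0.17 for zinc handling, −0.05, 0.00 and −0.27 for pyruvate dehydrogenase control, 0.94, 0.12 and −0.07 for PPAR targets, and 0.38, 0.19 and 0.07 for clock output genes. The list of other induced genes stood at 0.26, −0.03 and 0.26. In liver the hepatocyte markers had a median of 0.96, close to that of the PPAR targets. CON14L held the lowest hepatocyte marker sum, and its part in the liver medians was not tested.

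Members varied together to different degrees. Over the 18 libraries, each less the mean of its tissue, Pearson's r was 0.90 between *Hsd11b1* and *Tsc22d3* (0.84 without HS3W), 0.83 between *Nr3c1* and *Hsd11b1* (0.72), 0.78 between *Klf9* and *Zbtb16* (0.75) and 0.66 between *Zbtb16* and *Pdk4* (0.65). *Fkbp5* and *Nr3c1* gave −0.61 with HS3W and 0.00 without it. These correlations are descriptions, and the libraries share tissue, diet and marker content. Among 11742 genes the closest patterns were those of *Sgce* (0.96) and *Mcur1* (0.95) for *Nr3c1*, *Vtn* (0.97) and *Tmem135* (0.96) for *Hsd11b1*, *Erbin* (0.94) and *Hoxd9* (0.93) for *Fkbp5*, *Anxa6* (0.96) and *Lrg1* (0.95) for *Tsc22d3*, and *Fam117a* (0.88) and *Ppargc1b* (0.84) for *Sgk1*. For the others they were *Mtmr14* (0.91) and *H6pd* (0.87) for *Klf9*, *Cep85l* (0.87) and *Camsap2* (0.84) for *Zbtb16*, *Pacsin2* (0.93) and *Fam185a* (0.92) for *Mt1*, and *Pdzrn3* (0.87) and *Adm* (0.86) for *Pdk4*.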

How the data were processed

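RNA was extracted from liver, eWAT and quadriceps, depleted of rRNA and sequenced as stranded paired-end libraries. Reads were trimmed (cutadapt) and mapped to mm10 (HISAT2), and the authors deposited FPKM per gene. By the paper's account cuffdiff computed FPKM, guided by Ensembl gene models. The submitters' processing notes also name HTSeq 0.9.1 and the build mm9, and which tool gave the deposited values was not tested. Whether strand was used in counting is not given in the sources used here. Raw counts were not used here. As a check, fragments were recovered from FPKM with exon lengths of GENCODE M21, and 97.45 to 98.04% of low values (under 200 fragments) per library came out whole within 0.02.

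Fits used limma 3.58.1 under R 4.3.3, tissue by tissue, on log2(FPKM + 0.5), the model holding diet alone. A gene entered a fit from a mean of 0.5 FPKM upward, which 9 of the 10 members passed in each tissue, and p-values were adjusted over all genes (Benjamini-Hochberg). Fold changes on this scale understate low genes. Interactions and tissue levels came from 1 model of 18 libraries. The steps were tested on simulated data in which every gene of a tissue had the same normal spread. That simulation held no library that stood apart, so it does not cover such libraries. The members and lists (receptor machinery, local steroid handling, other glucocorticoid-induced genes, metallothionein and zinc genes, pyruvate dehydrogenase control, PPAR targets, clock output genes and cell type markers) were chosen with earlier results of these data known. Named were all members, each called list gene or else the 2 of smallest p in a list and tissue, and the 2 genes most like each member. A list gene that this rule names is not reported here. Replicate numbers were tested for pairing. In muscle same-numbered CON and HSD libraries deviated together (r = 0.383, 0.177 and 0.184), and in liver (−0.473, 0.395, −0.213) and eWAT (−0.197, 0.061, 0.414) they did not. The block was fitted in every tissue. No label pairs CON with HSD mice, so the muscle block rests on these correlations alone. CON replicate 3 and HSD replicate 2 of muscle, with unlike numbers, gave 0.18, and the other unlike pairs of muscle were negative. Promoters were read from RefSeq (GRCm38.p6). Alternatives covered pseudocount, filter, scaling, library weights, blocks, left-out libraries and the libraries of the study's read table. Limma voom on recovered fragments was chosen after seeing the data.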

Additional observations from a re-analysis of the deposited data

Results flagged for a closer look

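The effect of the diet on *Sgk1* ran in opposite directions in muscle and eWAT: every HSD muscle lay below every CON muscle (33.7 to 42.7 against 61.4 to 68.7 FPKM) and every HSD eWAT library above every CON one (20.5 to 31.2 against 14.8 to 17.9). The difference of the effects was −1.43 on the log2 scale (SE 0.48, limma adjusted p = 0.441, unadjusted p = 0.00948) and did not pass the test. Over the alternatives it ranged from −1.70 with library weights (adjusted p = 0.000508) to −1.24 with median-ratio scaling (adjusted p = 0.929).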

How the results depend on the processing

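Over 62 results and 1274 alternatives, 1189 kept direction and side of the threshold. The members called were 1 rather than 0 in liver with library weights (*Zbtb16*, 1.06, adjusted p = 6.54e-05, among 926 genes), in muscle with the replicate block, with voom and without HS5M (range without each library 0 to 1), and for muscle against eWAT with library weights (*Sgk1*). With library weights every liver member tested but *Fkbp5* and *Sgk1* was higher in HSD at a limma adjusted p of 0.00848 or less. Of these, *Klf9* (0.845), *Mt1* (0.808), *Hsd11b1* (0.622), *Tsc22d3* (0.62), *Nr3c1* (0.446) and *Pdk4* were short of the fold threshold. The main fit called 0 liver genes and the weighted fit 926. The share of all liver genes at that adjusted p is not given here, so these p-values are no result about the members. The replicate block changed no other member's call. Levels in CON with median-ratio scaling gave 5 members for eWAT against liver and 4 for muscle against liver, with no share of all genes given. The value of *Tsc22d3* there, eWAT minus liver, came to −0.486. The other values that changed sign were all short of the call. With library weights they were 0.323 for *Sgk1* and 0.945 for *Pdk4* in liver, 0.341 for *Klf9* and 0.01 for *Mt1* in eWAT, and −0.023 for *Nr3c1* and 0.04 for *Hsd11b1* in muscle. Over the study's libraries they were 0.005 for *Fkbp5*, 0.069 for *Sgk1* and 0.884 for *Pdk4* in liver. Without mitochondrially encoded genes *Nr3c1* came to −0.24 in liver and −0.019 in muscle, and with median-ratio scaling *Hsd11b1* came to 0.059 and *Tsc22d3* to 0.006 in muscle. Leaving out 1 library gave ranges of −0.085 to 0.063 for *Fkbp5*, −0.387 to 0.409 for *Sgk1* and −1.298 to 0.607 for *Pdk4* in liver, of −0.233 to 0.308 for *Klf9*, −0.097 to 0.084 for *Mt1* and −0.082 to 0.816 for *Fkbp5* in eWAT, and of −0.037 to 0.128 for *Nr3c1* and −0.124 to 0.139 for *Hsd11b1* in muscle. The cause was not tested. All genes called ranged from 5 (1 fit of all tissues) and 7 (no filter) to 63 (voom) in muscle, with 10 to 61 when a library was left out, reached 220 in eWAT with library weights, 161 with 1 fit of all tissues and 160 without HS3W, and in liver 926, 41 with 1 fit and 35 over the study's libraries. The median of all genes in liver was 0.128 and shifted to −0.227 without mitochondrially encoded genes. With 3 libraries a group, the liver spread leaves intervals of over 2 log2 units for *Hsd11b1*, *Sgk1*, *Mt1* and *Pdk4*, and low fragment counts limit liver *Pdk4* (11 to 501) and *Mt1* (28 to 157).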
